A study of Mus musculus with 12 samples.

Results

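The genes of the mitochondrial respiratory chain and the ATP synthase were followed in RNA-seq of liver and duodenum from mice given corticosterone (CORT) or vehicle (Veh). The members were taken by name from the gene tables of both tissues. They were the rows whose gene name begins with Nduf (complex I), Uqcr (complex III), Cox4 to Cox8 (complex IV) or Atp5 (complex V), the genes Sdha, Sdhb, Sdhc and Sdhd (complex II) and Cyc1, and the mitochondrial genes that begin with mt-Nd, mt-Co, mt-Cytb or mt-Atp. This gave 114 of the 55416 rows of each table, of which 101 were encoded in the nucleus and 13 in mitochondrial DNA (mtDNA). A further 14 rows named as pseudogenes were left out. The 114 rows carried 113 distinct names, because Atp5o was listed under 2 identifiers, and the second (ENSMUSG00000116933) was listed at 0 in all 12 libraries. Most members are structural subunits. The exceptions were 9 assembly factors (8 named Ndufaf, and Cox7a2l), 8 isoforms known from particular tissues and 5 gene copies.

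The mice were male C57BL6/J animals, 8 weeks old at the start. The CORT group received 40 mg/kg corticosterone by subcutaneous injection every day for 8 weeks, and the Veh group received the vehicle in the same way. Each tissue had 3 CORT and 3 Veh libraries, labelled as biological replicates, and the duodenum carries the label intestine. No allele or transgene was part of the design. Whether libraries with the same number in liver and duodenum came from the same mouse is not given in the sources used here.

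Electrons from NADH enter the respiratory chain at complex I and electrons from succinate at complex II, and both pass through coenzyme Q to complex III and through cytochrome c to complex IV, where oxygen is reduced. The protons pumped on the way drive the ATP synthase, complex V. Apart from complex II, each complex is built from subunits of both genomes, so its assembly draws on nuclear transcription and on transcripts made inside the mitochondrion. Liver spends ATP on glucose, urea and lipid synthesis, and the duodenal epithelium on transport and renewal. Glucocorticoids such as CORT, the main glucocorticoid of rodents, act through a nuclear receptor on metabolic genes of both tissues.

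Expression was read as TPM, a relative abundance per transcript length that can be compared between genes of 1 library. TPM values keep no read depth, so the precision of a value is known only from the spread between libraries. The deposited values summed to between 983327 and 997319 TPM per library. The mtDNA-encoded members took 6.22% to 7.64% of the total in liver and 6.49% to 9.73% in duodenum, and the nuclear-encoded subunits took 2.00% to 2.38% and 3.84% to 4.88%. The hepatocyte marker Alb ranged from 32823 to 59476 TPM in liver, and the enterocyte marker Vil1 from 839 to 1436 TPM in duodenum. The target gene Fkbp5, used as a check of the treatment, had 7.14, 12.7 and 19.5 TPM in Veh liver and 273, 249 and 221 TPM in CORT liver, and 8.68 to 23.3 TPM in Veh duodenum against 252 to 379 TPM in CORT duodenum. In the duodenum, 12 pancreatic acinar genes summed to 170 TPM in Veh1, 29620 TPM in Veh2, 25280 TPM in Veh3 and 140 to 314 TPM in the CORT libraries. Hepatocyte markers (5 genes) summed to 91200 to 123000 TPM in Veh liver and 109000 to 116000 TPM in CORT liver, leukocyte markers (4 genes) to 33.99 to 77.5 and 21.6 to 56.98 TPM, and acinar genes to at most 42.7 TPM. The enterocyte list reached 3790 to 13800 TPM in liver, led by Fabp1, which hepatocytes also make, and the hepatocyte list 8400 to 21700 TPM in duodenum, led by Apoa1, which enterocytes also make.

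The levels in Veh mice are given as a description, since the tables of the tissues were made separately and no test was run between them. In both tissues the members covered a wide range of levels. Atp5b, the catalytic beta subunit of the ATP synthase, was the highest nuclear member, at 1227 ± 96.9 TPM in liver and 3045 ± 225 TPM in duodenum (SD, n = 3 each). At the other end, Cox8c, Cox7b2, Cox6c2 and Ndufb11b were listed at 0 in all 12 libraries. The mean of the Veh or the CORT group reached 1 TPM for 104 members in liver and for 107 in duodenum, and these were tested. Summed over genes, Veh liver held 6541 ± 502 TPM of nuclear complex V subunits, 5661 ± 398 TPM of complex I, 5573 ± 472 TPM of complex IV, 3329 ± 212 TPM of complex III and 675 ± 61.7 TPM of complex II. The corresponding sums in Veh duodenum were 15690 ± 1410, 8794 ± 771, 11830 ± 1140, 5971 ± 493 and 1562 ± 142 TPM (SD, n = 3 each), so complex IV stood above complex I in duodenum while both were within their spread in liver.

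Most nuclear members had the higher level in duodenum, as did most genes. Of 90 nuclear members with at least 1 TPM in Veh mice of both tissues, 80 (88.9%) had the higher mean in duodenum, with a median ratio of duodenum to liver of 1.88. Over all 9905 genes with such levels, 7244 (73.1%) had the higher mean in duodenum and the median ratio was 1.60. By complex, the median ratio was 1.60 for the 37 nuclear subunits of complex I, the same as over all genes, 2.32 for complex II, 2.21 for complex III, 2.32 for complex IV and 2.13 for complex V. The assembly factors of complex I had a median ratio of 1.08. The gene rows of the mtDNA-encoded members had a median ratio of 0.689, with 5 of 13 above 1. Some of these rows share reads with near-identical copies, described further on, and with the copies added the median ratio was 0.728, with 5 of 13 above 1. Their sums were close, at 75000 ± 1000 TPM in Veh liver and 73860 ± 6460 TPM in Veh duodenum (SD, n = 3 each).

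Several members stood apart from this pattern. Atp5o, the stalk subunit known as OSCP, had 219, 270 and 246 TPM in Veh liver and 1027, 933 and 951 TPM in Veh duodenum, a ratio of 3.96. Among nuclear members other than isoforms, Uqcrc1, a core protein of complex III, followed with a ratio of 3.47. Ndufaf6, a complex I assembly factor, was at 15.2, 16.1 and 14.1 TPM in liver and 6.61, 7.66 and 5.10 TPM in duodenum, a ratio of 0.426. Every duodenal value of Ndufaf6 was below every liver value. Ndufa4, now placed in complex IV, did not separate the tissues, with 611 to 689 TPM in Veh liver and 316 to 664 TPM in Veh duodenum.

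**Figure D1:**
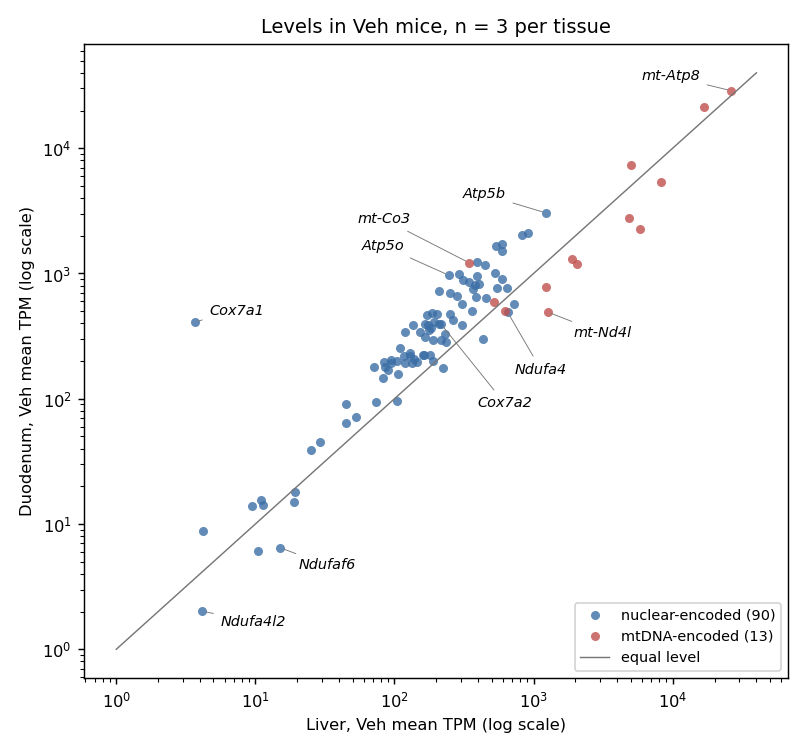
Mean TPM of each member in Veh liver (x axis, log scale) and Veh duodenum (y axis, log scale), n = 3 libraries per tissue, for the 90 nuclear (blue) and 13 mtDNA-encoded (red) members at 1 TPM or more in both, with the line of equal level. Most nuclear members lie above the line, 80 of 90, and Cox7a1 lies far above it, while 8 of the 13 mtDNA-encoded members lie below it.

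The widest separation belonged to a complex IV isoform. Subunit VIIa is made from Cox7a2, found in most tissues, and Cox7a1, known from heart, skeletal muscle and brown fat. Cox7a1 had 1.42, 6.94 and 2.65 TPM in Veh liver and 480, 409 and 341 TPM in Veh duodenum, a ratio of 112. It made up 50.9% ± 2.73 (SD, n = 3) of the Cox7a1 and Cox7a2 transcripts of Veh duodenum and 1.55% ± 0.924 (SD, n = 3) of those of Veh liver. In CORT mice the shares were 51.1% ± 3.14 in duodenum and 1.21% ± 1.06 in liver (SD, n = 3 each), within the spread of the Veh libraries. In the duodenum, 5 striated muscle markers summed to 8.48 to 20.4 TPM in Veh and 8.73 to 42.6 TPM in CORT libraries, with Myh1 and Myh4 listed at 0, and 5 adipocyte markers to at most 6.84 TPM, with Ucp1 listed at 0. In the same libraries 5 smooth muscle markers summed to 370 to 747 TPM in Veh and 242 to 383 TPM in CORT, and their part in the Cox7a1 level was not tested.

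The other isoforms listed for particular tissues stayed low. Cox4i2, the isoform known from lung, held 0.0864% of the subunit IV transcripts in Veh duodenum and 0.0312% in Veh liver, the rest being Cox4i1. Cox6b2, known from testis, held 0.524% of subunit VIb transcripts in Veh duodenum. Cox6a2 and Cox8b, both muscle isoforms, were at or below 1.01 and 3.05 TPM in every library. Subunit c of the ATP synthase, which forms the rotating ring, is encoded by 3 genes that make the same mature protein. Atp5g3 gave 61.2% ± 0.556 of their transcripts in Veh liver and 68.8% ± 0.346 in Veh duodenum, Atp5g1 gave 37.9% ± 0.573 and 30.6% ± 0.210, and Atp5g2 stayed under 1.2% in all libraries of both tissues (SD, n = 3 each). The inhibitor of the ATP synthase, Atpif1, which is no member, had 28.1, 36.3 and 31.1 TPM in Veh liver and 1235, 913 and 960 TPM in Veh duodenum. Reads of near-identical copies can be shared out by the quantification, so Ndufb4 (22.4 to 26.2 TPM in Veh liver) and its copy Ndufb4c (136 to 187 TPM) are uncertain as separate values.

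Upstream of the nuclear members, sequence motifs were counted in RefSeq promoters (GRCm38.p6, 250 bases before to 50 bases after the start) for the 77 of 100 nuclear member names that matched. The motif of NRF1, a factor known to act on respiratory genes, was searched on both strands as GCGCA, any base and GCGC. It lay in 19 of 77 promoters (24.7%), against 5.19% of all 27025 genes with a promoter. These genes were not matched to the members in level or base composition. The ETS motif CCGGAAG, bound by the factor GABP (NRF2) among others, also lay in 19 of 77 (24.7%), against 9.93% of all, and 4 promoters held both. Neither motif contains the other. The palindromic glucocorticoid response element, searched as GNACA, any 3 bases and TGTNC, was in 0 of 77 promoters and in 0.537% of all. That share is too low for 0 of 77 to show a lack of the motif, and sequence outside this window was not searched. These are matches of letters and not sites. To set a subunit expressed in both tissues beside the isoform that separates them, the promoters of Cox6a1 (chr5:115348909-115349208, minus strand) and Cox7a1 (chr7:30183921-30184220, plus strand) are shown, with NRF1 motifs in capitals. Cox6a1 has 2 such matches and Cox7a1 none. Cox7a2, the gene of the same subunit found in most tissues, also has none, as is so for most of the 77 promoters. A link between the motif and the level in either tissue was not tested.
Cox6a1: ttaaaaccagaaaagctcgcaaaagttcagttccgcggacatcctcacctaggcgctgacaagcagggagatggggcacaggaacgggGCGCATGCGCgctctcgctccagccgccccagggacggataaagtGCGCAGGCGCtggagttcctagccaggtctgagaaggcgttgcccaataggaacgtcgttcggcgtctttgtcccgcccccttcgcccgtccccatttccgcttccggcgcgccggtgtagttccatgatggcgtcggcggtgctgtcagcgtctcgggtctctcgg
Cox7a1: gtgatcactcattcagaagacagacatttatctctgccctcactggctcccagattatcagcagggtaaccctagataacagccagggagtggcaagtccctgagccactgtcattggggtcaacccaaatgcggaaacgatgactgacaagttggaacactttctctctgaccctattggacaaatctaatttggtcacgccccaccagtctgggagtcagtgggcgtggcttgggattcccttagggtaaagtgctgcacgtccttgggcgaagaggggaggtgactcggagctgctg

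In liver, no transcript of the respiratory chain or the ATP synthase passed the test for a change with CORT. None of the 104 members tested was a differentially expressed gene (DEG) by limma, for which both a change of more than 1.5-fold and an adjusted p (Benjamini-Hochberg, over all genes tested) no higher than 0.05 were needed, and none passed the adjusted p alone. For comparison, 6.92% of the 11699 liver genes tested were DEGs (810 genes, and 247 to 831 with 1 library left out). At an unadjusted p under 0.05 there were 0 members higher and 3 lower, against 16.9% of all genes higher and 9.06% lower. The members divided into 52 higher and 52 lower in CORT, or 26 and 78 after rescaling by the median of gene ratios and 33 and 71 without Veh1. Their median log2 fold change was -0.001, while the median of all genes was 0.078, and after the rescaling these were -0.096 and -0.003. For 88 of 104 members the 95% confidence interval of the change lay within 1.5-fold in either direction, which held for 3543 of 11699 genes overall. In 4 members every CORT value was above every Veh value and in 8 every CORT value was below, where the groups of all genes did so in 20.6% and 11.6%. These bulk values cannot tell fewer cells of a type from less RNA per cell, and the p-values measure only the spread between 3 mice per group.

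Complex I had the 2 liver members with the smallest p. Ndufaf7, a methyltransferase that acts in the assembly of complex I, had 11.4, 11.6 and 11.2 TPM in Veh and 8.28, 8.43 and 7.19 TPM in CORT. The groups did not overlap, and the log2 difference was -0.47 (95% CI -0.75 to -0.19, limma adjusted p = 0.0625). Ndufaf6, which acts early in the assembly of complex I, had 15.2, 16.1 and 14.1 TPM in Veh and 11.6, 10.4 and 10.1 TPM in CORT, a difference of -0.46 (95% CI -0.75 to -0.18, limma adjusted p = 0.0654). These missed the threshold, and both passed it when libraries were rescaled by the median of their gene ratios (smallest adjusted p 0.0348). With 1 library left out, the smallest limma adjusted p of any member was 0.0791 to 0.148. Of the 8 Ndufaf genes 7 were lower in CORT, with a median of -0.23, where 41.6% of all liver genes tested were lower. The 37 nuclear subunits of complex I stayed close to their Veh level, between -0.20 and 0.19, with 24 higher and 13 lower. Among the core subunits, Ndufs1, which carries iron-sulphur clusters, had 42.3, 46.9 and 46.4 TPM in Veh and 58.4, 52.9 and 41.2 TPM in CORT, so the groups overlapped. Ndufs4, an accessory subunit of the peripheral arm, had 45.9, 44.3 and 43.6 TPM in Veh and 42.2, 40.6 and 34.1 TPM in CORT, a difference of -0.20 that did not pass (limma adjusted p = 0.371).

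In complexes II to V of liver the common nuclear subunits also stayed close to their Veh level. The 4 Sdh genes of complex II, which is also the citric acid cycle enzyme succinate dehydrogenase, differed by -0.08 to 0.11 on the log2 scale. The 9 nuclear genes of complex III ranged from -0.14 to 0.11, and the 11 common nuclear subunits of complex IV from -0.13 to 0.22. In complex V the range was -0.17 to 0.24 over 17 genes. The 3 complex IV isoforms tested spread more widely, with Cox6b2 at 0.52, Cox7a1 at -0.35 and Ndufa4l2 at -0.46, all with overlapping groups, and the mtDNA-encoded subunits are given further on. The catalytic subunit of complex V, Atp5b, had 1127, 1233 and 1320 TPM in Veh and 1540, 1470 and 1322 TPM in CORT, so the groups were apart by about 1 TPM (log2 difference 0.24, 95% CI -0.08 to 0.55, limma adjusted p = 0.310). Atp5d, the delta subunit of the central stalk, had 352, 412 and 380 TPM in Veh and 458, 477 and 416 TPM in CORT, also without overlap (log2 difference 0.24, 95% CI -0.06 to 0.54, limma adjusted p = 0.279). The summed nuclear subunits came to 19940, 23060 and 22340 TPM in Veh and 23450, 23330 and 20220 TPM in CORT, a log2 difference of 0.04 (exact permutation test, two-sided p = 0.5). The groups overlapped over most of their range, and after rescaling by the median of gene ratios the difference was -0.06.

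**Figure D2:**
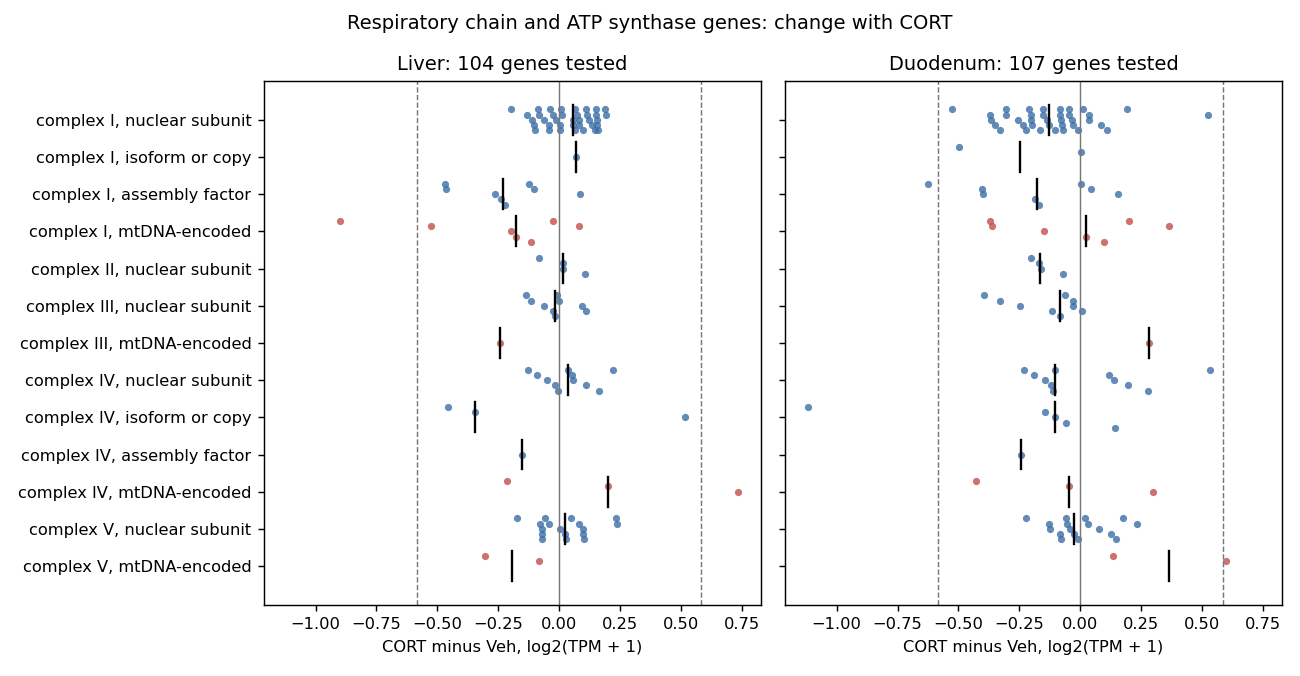
Difference between CORT and Veh on the log2(TPM + 1) scale for each member (points: blue nuclear, red mtDNA-encoded), by complex and role, with the median of each class (black bars), in liver (left, 104 genes) and duodenum (right, 107 genes), n = 3 libraries per group. Dashed lines mark a 1.5-fold change, and the nuclear subunits of liver, apart from isoforms, copies and assembly factors, lie between -0.20 and 0.24.

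In the duodenum 0 of 107 members tested were DEGs by limma, and 0 passed the adjusted p alone, where 2.15% of 13607 genes were DEGs (292 genes, and 66 to 237 with 1 library left out). At an unadjusted p under 0.05, 1 member was higher and 6 were lower, against 8.72% and 10.5% of all genes, and without CORT1 the count in both directions was 16. More members were lower than higher, 74 against 33, with a median log2 fold change of -0.08, while 7009 of all 13607 genes were lower and their median was -0.01. Lower members were the majority with each library left out, but the size of this lean moved with single libraries. Without Veh1 the members stood at 48 higher and 57 lower with a median of -0.01, and without CORT2 at 48 and 59 with a median of -0.03. Without CORT1 they stood at 27 and 80 with a median of -0.18, and without Veh3 at 26 and 81 with a median of -0.15. With the 12 pancreatic acinar marker genes left out and the libraries rescaled, 80 of 107 were lower with a median of -0.10. Only these 12 rows were dropped, so other transcripts of acinar cells stayed in. The 95% confidence interval lay within 1.5-fold for 66 of the 107 members, which held for 4860 of 13607 genes overall. Groups did not overlap for 3 members that were higher and 12 that were lower, against 12.2% and 14.3% of all genes.

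Complex I again held the members with the smallest p. Ndufc2, an accessory subunit of the membrane arm, had 96.5, 89.9 and 96.3 TPM in Veh and 148, 149 and 114 TPM in CORT. Every CORT value was above every Veh value (log2 difference 0.52, 95% CI 0.18 to 0.86, limma adjusted p = 0.121). Ndufs7, a core subunit with the last iron-sulphur cluster before coenzyme Q, had 240, 212 and 208 TPM in Veh and 183, 138 and 139 TPM in CORT. Here every CORT value was the lower (log2 difference -0.53, 95% CI -0.89 to -0.16, limma adjusted p = 0.141). Ndufaf7 had 15.4, 14.7 and 12.2 TPM in Veh and 10.6, 9.86 and 10.7 TPM in CORT (log2 difference -0.40, 95% CI -0.71 to -0.09, limma adjusted p = 0.169). It was the 1 member whose CORT libraries were all below the Veh libraries in both tissues, and 0 members were above in both, where 2.75% and 5.11% of the 10500 genes tested in both tissues were. Ndufaf3, which helps to build the peripheral arm, had 15.2, 17.2 and 14.2 TPM in Veh and 13.5, 6.77 and 9.78 TPM in CORT (log2 difference -0.63, limma adjusted p = 0.206). Of the 37 nuclear subunits of complex I, 30 were lower and 7 higher, with a median of -0.13.

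**Figure D3:**
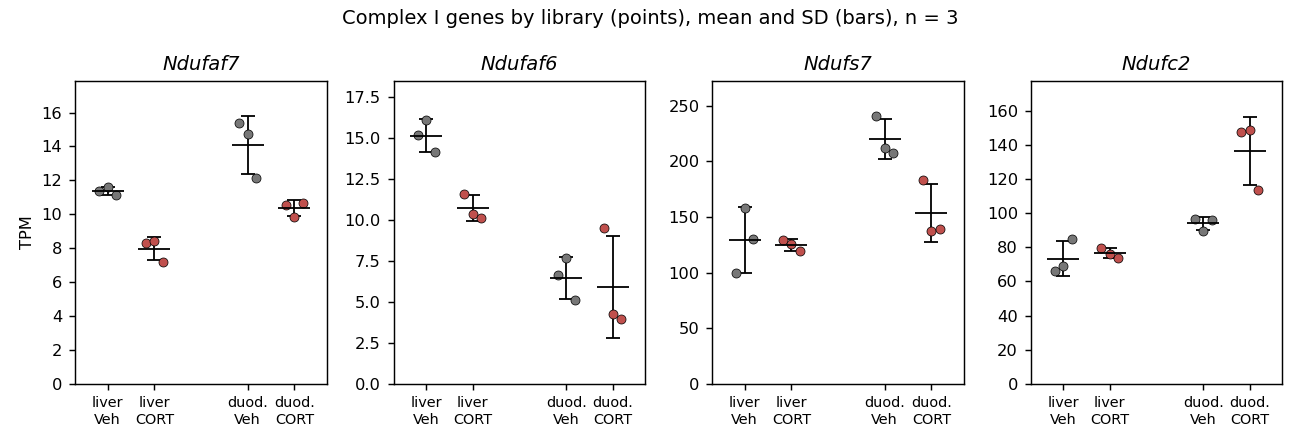
TPM of Ndufaf7, Ndufaf6, Ndufs7 and Ndufc2 in each library (points; grey Veh, red CORT) of liver and duodenum, with the group mean and SD (bars, n = 3). The CORT points of Ndufaf7 lie below the Veh points in both tissues, 7.19 to 8.43 against 11.2 to 11.6 TPM in liver and 9.86 to 10.7 against 12.2 to 15.4 TPM in duodenum.

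The remaining complexes of the duodenum overlapped between groups for most members. All 4 Sdh genes had lower values in CORT, by -0.20 to -0.07 on the log2 scale, and Sdha, the flavoprotein of complex II, had 387, 337 and 346 TPM in Veh and 332, 298 and 320 TPM in CORT (log2 difference -0.17, limma adjusted p = 0.495). Uqcrfs1, the Rieske iron-sulphur protein of complex III, had 402, 371 and 386 TPM in Veh and 369, 317 and 215 TPM in CORT, with CORT3 well below the rest (log2 difference -0.40, limma adjusted p = 0.347). Cox7a2l, a factor that joins complexes III and IV, had 211, 195 and 195 TPM in Veh and 167, 173 and 168 TPM in CORT. Its groups did not overlap (log2 difference -0.24, 95% CI -0.50 to 0.02, limma adjusted p = 0.291). In complex IV, Ndufa4 had 664, 316 and 486 TPM in Veh and 711, 734 and 594 TPM in CORT, a log2 difference of 0.53 with overlapping groups (limma adjusted p = 0.334). Cox7a1 had 517, 389 and 451 TPM in CORT, within the Veh values apart from CORT1 (log2 difference 0.15, limma adjusted p = 0.684). The 17 complex V genes lay between -0.22 and 0.24.

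Summed over 92 nuclear subunit genes, the duodenum had 48260, 42570 and 40720 TPM in Veh and 48480, 38130 and 40050 TPM in CORT, a log2 difference of -0.06 (exact permutation test, two-sided p = 0.6). Veh1 and CORT1 held the highest sums of their groups in complexes I, II, III, IV and V alike. Beside these values, the 6 enterocyte markers summed to 21200 to 30100 TPM in Veh and 39800 to 43000 TPM in CORT, and the 4 leukocyte markers to 96.7 to 154 and 81.9 to 173 TPM. The higher enterocyte sum came from Apoa4 (means of 9591 and 19840 TPM), Fabp1 and Fabp2 in the main, while Alpi (2384 and 1709 TPM) and Vil1 (1153 and 1029 TPM) had the lower mean in CORT, and none of the 6 passed the limma adjusted p. The part of these markers in the differences was not tested.

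A difference between the tissues in their response was tested directly. Of 107 members, 0 passed an adjusted p of 0.05 for treatment by tissue in limma, where 3.61% of 14806 genes did. The smallest p belonged to mt-Co3, whose change in liver exceeded that in duodenum by 1.16 (95% CI 0.33 to 2.00, limma adjusted p = 0.128). Without liver CORT1 its limma adjusted p was 0.0267, and mt-Co3 was then the 1 member past the threshold. Ndufc2 differed by -0.46 (95% CI -0.87 to -0.04, limma adjusted p = 0.229) and mt-Nd1 by 0.45 (95% CI 0.09 to 0.81, limma adjusted p = 0.172). Neither passed the threshold. The row of mt-Co3 shares its sequence with another row, as described next, and with that row added the difference between liver and duodenum was -0.46, so the direction turned.

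Of the 13 mtDNA-encoded genes, 7 have a near-identical copy among the annotated pseudogenes of the nuclear genome (GENCODE M21 transcripts, at least 99% identity over at least 90% of the copy). All 7 copies lie together on chromosome 1 (GRCm38, chr1:24611535-24616197, minus strand), a stretch of 4663 bases, and 5 of them match the mitochondrial gene with no mismatch. The other two differ at 1 base each over 345 and 483 aligned bases. The mt-Nd3 copy Gm28438 carries T3C and the mt-Co1 copy Gm29216 carries A1066T, with positions counted from 1 at the 5′ end of the mitochondrial gene. They are shown because these are the only bases that differ within the aligned stretches, with the differing base in capitals. The rows also differ in length, mt-Co1 having 1545 bases and Gm29216 492, and mt-Nd3 348 and Gm28438 345.
mt-Nd3: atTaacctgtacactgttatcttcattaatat
Gm28438: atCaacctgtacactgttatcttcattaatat
mt-Co1: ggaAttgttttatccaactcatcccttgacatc
Gm29216: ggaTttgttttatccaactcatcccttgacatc

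The copy rows of the tables held much of the signal. In liver the mean over all libraries was 549 TPM for the mt-Co2 row and 13720 TPM for its copy Gm28661, 25.0 times as much. For mt-Co3 the copy Gm28437 held 27.1 times the gene row, for mt-Atp6 (Gm10925) 13.3 times, for mt-Nd4l (Gm10222) 9.76 times and for mt-Nd3 3.78 times. In duodenum the same 5 ratios ran from 7.39 (mt-Nd3) to 29.0 (mt-Co2). The mt-Co1 copy held 0.453 and 0.241 times its gene row, and the mt-Nd4 copy Gm28439 was listed at 0 throughout. Together the near-identical copies had 58220 ± 939 TPM in Veh liver and 53300 ± 4820 TPM in Veh duodenum (SD, n = 3 each). The values of these 7 gene rows are therefore uncertain, and each gene was also read with its copy added in proportion to length. In addition, mt-Atp8 and mt-Atp6 overlap and share a transcript, as do mt-Nd4l and mt-Nd4, so their separate levels depend on how reads were shared out. The mt-Atp8 row was the highest of all members, at 26440 ± 1540 TPM in Veh liver and 28750 ± 1600 TPM in Veh duodenum (SD, n = 3 each).

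With liver gene rows alone, 10 of the 13 mtDNA-encoded genes were lower in CORT, 0 passed the limma adjusted p, and 1 had an unadjusted p under 0.05. That was mt-Nd4l, with 1112, 1251 and 1439 TPM in Veh and 1126, 381 and 714 TPM in CORT (log2 difference -0.90, 95% CI -1.77 to -0.03, limma adjusted p = 0.179). Read with its copy, mt-Nd4l had 10812, 11263 and 11004 TPM in Veh and 10549, 11296 and 9286 TPM in CORT, and the difference was -0.09. Likewise mt-Co3 went from 0.74 to -0.20 and mt-Co2 from 0.20 to -0.10, with the sign turned. After the copies were added 12 of 13 genes had lower values, where 4862 of 11699 genes were, and the median was -0.19. In 7 of the 13 every CORT value was below every Veh value, against 4 of 13 from the gene rows alone and 11.6% of all liver genes. Some of the 13 share a transcript, so they are not independent observations. The reading with copies was also chosen after the data were seen. The smallest p was that of mt-Atp6, a subunit of the proton channel, with 9749, 9747 and 9978 TPM in Veh and 7223, 7885 and 7673 TPM in CORT (log2 difference -0.37, 95% CI -0.67 to -0.08, limma adjusted p = 0.118). The 6 genes without a near-identical copy lay between -0.30 and 0.08, and 3 of them (mt-Nd2, mt-Atp8 and mt-Cytb) had groups that did not overlap. The complex III subunit mt-Cytb had 7977, 8269 and 8314 TPM in Veh and 6794, 7291 and 6713 TPM in CORT, without overlap (log2 difference -0.24, 95% CI -0.54 to 0.06, limma adjusted p = 0.277). The groups of mt-Nd5 (-0.02), mt-Nd6 (-0.12) and mt-Nd1 (0.08) overlapped, and mt-Nd1 was the 1 gene with the higher mean in CORT, with 4378, 5571 and 5072 TPM in Veh and 5384, 5516 and 4941 TPM in CORT.

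**Figure D4:**
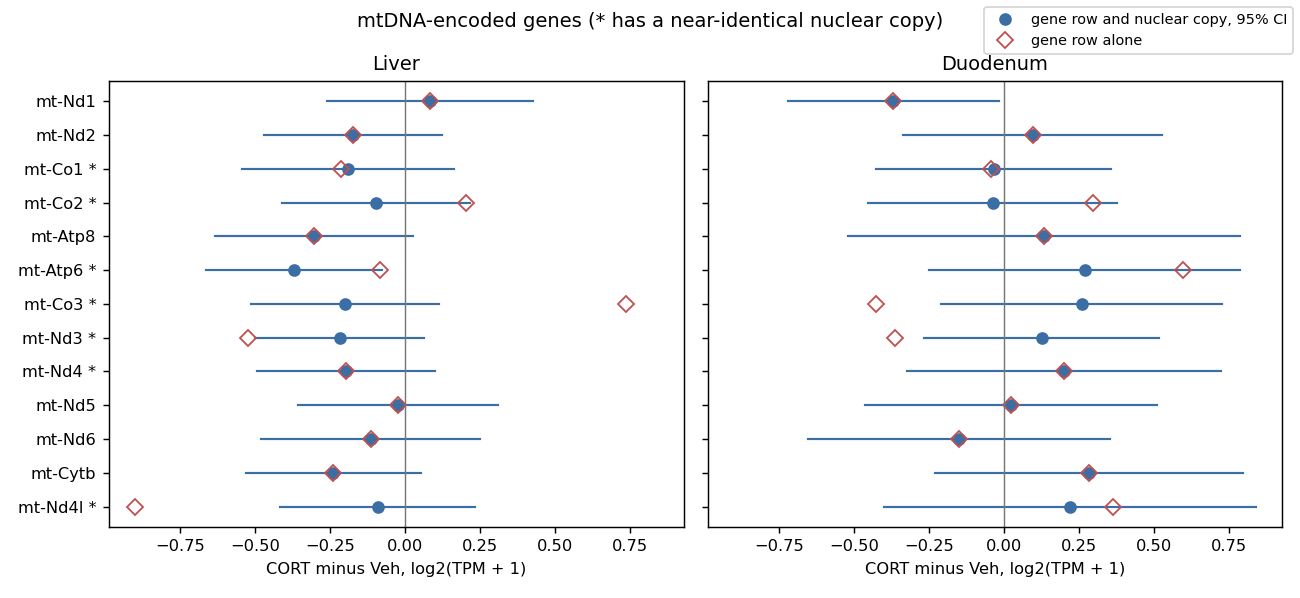
Difference between CORT and Veh on the log2(TPM + 1) scale for each mtDNA-encoded gene, read from its own row (red diamonds) and with its near-identical nuclear copy added (blue points with the 95% confidence interval), in liver (left) and duodenum (right), n = 3 libraries per group. In liver 12 of 13 blue points lie below 0, and the diamonds of mt-Co3 (0.74) and mt-Nd4l (-0.90) lie far from their blue points (-0.20 and -0.09).

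As 1 value per library, the 13 mtDNA-encoded genes summed to 74420, 74430 and 76160 TPM in Veh liver and 63710, 69130 and 61130 TPM in CORT liver. All CORT values lay below all Veh values, a log2 difference of -0.22. The exact permutation test gave a two-sided p of 0.1, the smallest that 3 against 3 allows. A large part of the difference lay in the mt-Atp8 row, with means of 26440 TPM in Veh and 21420 TPM in CORT. The separate level of that row is uncertain, as described above. With the copies added the sums were 127000, 127100 and 130200 TPM in Veh and 110600, 119700 and 105500 TPM in CORT (log2 difference -0.20, exact permutation p = 0.1). The ratio of the mtDNA-encoded to the nuclear sum, which does not depend on the scaling of a library, was 3.73, 3.23 and 3.41 in Veh and 2.72, 2.96 and 3.02 in CORT. It was lower in all 3 CORT libraries (log2 difference -0.25, exact permutation p = 0.1).

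The duodenum showed no such separation. Its mtDNA-encoded sums were 80460, 67550 and 73570 TPM in Veh and 64490, 96640 and 71160 TPM in CORT (log2 difference 0.05, exact permutation p = 0.9). CORT2 stood apart, through mt-Atp8 in the main, which had 47918 TPM in that library and 25414 to 30526 TPM in the other 5. Without CORT2 the difference was -0.12. The ratio to the nuclear sum was 1.67, 1.59 and 1.81 in Veh and 1.33, 2.54 and 1.78 in CORT (exact permutation p = 0.8). Among single genes, mt-Nd1 had 7929, 7209 and 6915 TPM in Veh and 5232, 5696 and 6157 TPM in CORT, without overlap (log2 difference -0.37, 95% CI -0.72 to -0.02, limma adjusted p = 0.239). The mt-Co3 row had 1172, 1161 and 1323 TPM in Veh and 932, 820 and 970 TPM in CORT (log2 difference -0.43, limma adjusted p = 0.164), but with its copy the difference was 0.26. With copies added, 9 of 13 genes were higher and 4 lower, and 0 passed the limma adjusted p, with 1 at an unadjusted p under 0.05. The difference between tissues in these sums was not tested.

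**Figure D5:**
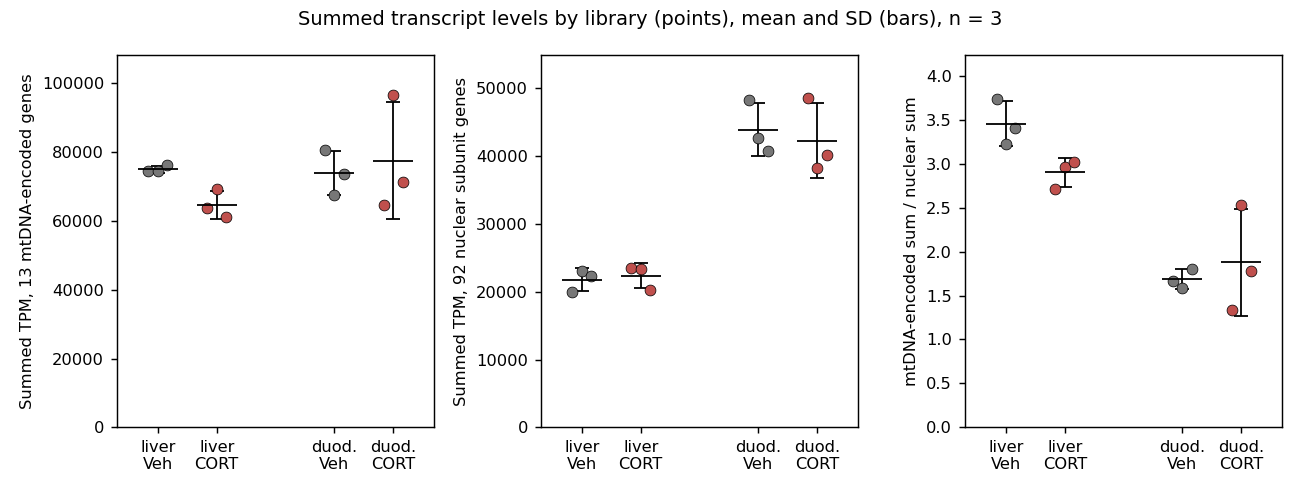
Summed TPM of the 13 mtDNA-encoded genes (left), summed TPM of 92 nuclear subunit genes (middle) and their ratio (right) in each library (points; grey Veh, red CORT), with the group mean and SD (bars, n = 3). In liver the mtDNA-encoded sum was 74420 to 76160 TPM in Veh and 61130 to 69130 TPM in CORT, while the nuclear sums of the groups overlapped.

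Genes that work around the chain were read from lists. Of 40 assembly factors outside the member list, 39 were tested in liver and 1 was a DEG, with 21 higher, 18 lower and a median of 0.02. For all liver genes tested the shares were 6.92% DEGs and 58.4% higher. The 1 DEG of the list was Coa6, which helps to deliver copper to complex IV, with 36.9, 36.8 and 47.4 TPM in Veh and 71.1, 78.2 and 72.1 TPM in CORT (log2 difference 0.86, SE 0.141, limma adjusted p = 0.0184). In duodenum Coa6 had 23.2, 19.3 and 18.6 TPM in Veh and 27.0, 24.1 and 20.6 TPM in CORT, which did not pass. There, 28 of the 39 assembly factors were lower, with a median of -0.12 and 0 DEGs by limma (5 at an unadjusted p under 0.05, 1 higher and 4 lower). For all duodenal genes tested the shares were 2.15% DEGs and 51.5% lower, with 8.72% higher and 10.5% lower at an unadjusted p under 0.05.

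Among 8 regulators of the nuclear members, the 7 tested in liver all had higher values in CORT, with a median of 0.26 and 0 DEGs by limma (2 at an unadjusted p under 0.05). Of all liver genes tested, 58.4% had higher values, with a median of 0.078. At an unadjusted p under 0.05, 16.9% of them were higher and 9.06% lower in limma. Pprc1, a coactivator related to PGC-1alpha, had 2.07, 1.95 and 2.37 TPM in Veh and 4.81, 5.11 and 3.26 TPM in CORT, and its groups did not overlap (log2 difference 0.77, SE 0.182, limma adjusted p = 0.052). Esrra, a nuclear receptor of respiratory genes, had 13.1, 18.3 and 15.0 TPM in Veh and 19.3 to 22.5 TPM in CORT (limma adjusted p = 0.156). Ppargc1a itself, which encodes PGC-1alpha, was low in liver, at 0.82 to 1.80 TPM. Of 20 genes for mtDNA copying, transcription and RNA handling, 11 were higher and 9 lower in liver, with 0 DEGs by limma (1 higher and 3 lower at an unadjusted p under 0.05). Lrpprc, which stabilises mitochondrial mRNA, had 38.1, 39.3 and 40.9 TPM in Veh and 34.2, 31.0 and 22.7 TPM in CORT liver (log2 difference -0.44, SE 0.168, limma adjusted p = 0.161). In the same list Polg2 (log2 difference -0.54) and Ssbp1 (-0.43) had a smaller p in liver than Lrpprc, and Fastkd1 was higher (0.38). The part of Lrpprc in the levels of mtDNA-encoded transcripts was not tested. In duodenum the values of Lrpprc were 25.0, 20.4 and 20.8 against 20.3, 19.8 and 20.7 TPM. There, 12 of the 20 genes for mtDNA handling and 7 of the 8 regulators had higher values, with 0 DEGs by limma in either list (1 and 0 at an unadjusted p under 0.05). Among all duodenal genes tested, 48.5% had higher values. At an unadjusted p under 0.05, 8.72% of them were higher and 10.5% lower in limma. The genes of cytochrome c and coenzyme Q (13) and of outer membrane channels and import (8) held 0 DEGs by limma in either tissue, with 1 each at an unadjusted p under 0.05 in liver and with 3 and 2 in duodenum.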

How the data were processed

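Total RNA was extracted by the authors and made into TruSeq libraries. They trimmed the reads (SeqPrep, Sickle), aligned them (HISAT2), assembled transcripts (StringTie) and estimated abundance (RSEM). The submitters' processing notes name GRCm39, and tool versions are not given in the sources used here. The values the authors deposited are TPM for every gene in each single library, in which depth is no longer seen.

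Tests used log2(TPM + 1) and left out genes whose mean stayed under 1 TPM in both groups. limma 3.58.1 (R 4.3.3, eBayes with trend) was run for liver and duodenum separately with treatment as its term, and p-values were adjusted over all genes tested (Benjamini-Hochberg). DEGs needed more than 1.5-fold change and an adjusted p no higher than 0.05. The pseudocount of 1 shrinks the differences of genes at low TPM. Treatment by tissue was fitted over all 12 libraries. Sums per library were compared by exact two-sided permutation tests. Scripts were tested on simulated data.

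Copies of mtDNA-encoded genes were found with blastn 2.17.0 among GENCODE M21 transcripts (GRCm38, not the build of the files, so matched by gene identifier), and promoters and their coordinates are RefSeq's of GRCm38.p6. A copy was added to its gene after multiplying it by the ratio of the 2 lengths. The members, lists and markers were chosen with earlier results of these data known. Genes named were those with the highest level or smallest p of each complex, all mtDNA-encoded genes, the isoform sets, the Sdh genes, list genes past the threshold and Fkbp5. Others (Ndufaf3, Ndufaf6, Ndufs1, Ndufs7, Ndufb4, Ndufb11b, Cox6c2, Uqcrc1, Atp5o, Apoa4, Fabp2 and Alpi) were chosen after their values were seen. So were Pprc1, Esrra, Ppargc1a, Lrpprc, Polg2, Ssbp1 and Fastkd1.

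Alternatives were a pseudocount of 0.1, no filter, scaling by the median of gene ratios and nuclear genes only. Further ones were removal of the 12 acinar marker genes, the replicate number as a block and leaving out each library. Merging copies was chosen after seeing the data. The list of citric acid cycle genes is not reported here.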

Additional observations from a re-analysis of the deposited data

How the results depend on the processing

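No member was a DEG under any of the alternatives, in either tissue. In liver, median-ratio scaling put 2 members past the adjusted p, Ndufaf6 and Ndufaf7, moved the members from 52 higher and 52 lower to 26 and 78, moved the log2 difference of the mtDNA-encoded sum to -0.312 and changed the share of higher genes among liver DEGs from 71.0% (575 and 235) to 53.7% (543 and 468). Over all genes the count of DEGs changed more, from 810 in liver and 292 in duodenum to 283 and 52 without a filter on low values. With a replicate block it was 307 and 62, still with 0 members. The replicate numbers did not pair the samples, since the correlations of same-numbered deviations lay between -0.12 and 0.073, so this block is not read as a weaker effect. Leaving out 1 library at a time gave 247 to 831 liver DEGs, with 315 without Veh1, 303 without Veh3, 247 without CORT1, 435 without CORT2 and 522 without CORT3. In duodenum it gave 66 to 237, with 76 without Veh2, 66 without Veh3, 106 without CORT1, 112 without CORT2 and 99 without CORT3. For treatment by tissue it gave 0 to 1 members. The causes were not tested, beyond the smaller number of samples in these fits. The log2 difference of the liver mtDNA-encoded sum stayed between -0.265 and -0.176 with each library left out, and that of the liver ratio to the nuclear sum between -0.30 and -0.195. In the duodenum the same sum turned sign, from -0.121 to 0.171, as did the ratio, from -0.132 to 0.333. For single genes, adding the copies moved mt-Co3 and mt-Nd4l in liver and mt-Co3 and mt-Nd3 in duodenum by more than the spread between replicates. Cox6b2 in liver and Cox8b in duodenum, both near 1 TPM, did so with the pseudocount of 0.1. With 3 libraries a group and no read counts, differences under about the width of the intervals given could not be detected.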
